A study of Mus musculus with 7 samples.

Results

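Poly-ADP-ribose polymerase (PARP) genes were followed in Beta-TC6, an insulin-secreting line from a mouse beta-cell tumour. All cells were labelled wild type, and polyadenylated RNA was sequenced from 3 libraries of cells treated with IL1B, the inflammatory cytokine interleukin-1 beta, and from 4 libraries of cells given vehicle. Every library, vehicle included, came from cells grown in DMEM with 15% FBS and synchronised with a pulse of forskolin (10 µM, 1 h), which raises cAMP. The sources used here do not give the dose and duration of IL1B or the time of harvest, and the model is 1 tumour-derived line. The comparison asked which transcripts IL1B moved in these cells.

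The 10 genes are Parp1, Parp2, Parp3, Parp4, Parp6, Parp8, Parp9, Parp10, Parp12 and Parp14, found by symbol among the 23329 rows of the deposited count table. They were selected from the family with the IL1B and vehicle counts of this same comparison already known. Their IL1B values are therefore a description, given with no p-value, and they support nothing beyond themselves. The remaining 6 family genes of the table, Tiparp, Parp11, Zc3hav1, Parp16, Tnks and Tnks2, and 5 lists of genes that act with ADP-ribosylation were tested. These 6 are what the choice of members left, and the lists too were drawn up with earlier results of these data known. Their p-values are therefore not independent of those results. All 10 members passed the low-count filter, as did 12480 genes in all.

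PARP enzymes take ADP-ribose from NAD and attach it to proteins or nucleic acids. Parp1 and Parp2 encode the enzymes that build ADP-ribose chains at DNA breaks, while most other members attach a lone unit, and several of those are known as interferon-induced antiviral genes. In beta cells the family is known from streptozotocin diabetes in mice, where overactive PARP1 drains NAD and Parp1 loss protects the islets. By role, the members fall into DNA-break enzymes (Parp1, Parp2, Parp3), the vault-particle PARP (Parp4), a pair of mono-ADP-ribosyltransferases outside either field (Parp6, Parp8) and interferon-linked genes (Parp9, Parp10, Parp12, Parp14).

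Promoter windows, 250 bases before to 50 after a gene's start, were taken from RefSeq on GRCm38.p6, the assembly that mm10 represents. Of the 16 family genes and Dtx3l, the partner of Parp9, 13 had a window, among them 7 of the members. Parp9, Parp10 and Parp14 had no entry. The windows shown belong to Parp3 and Parp8, members that were higher with IL1B, to Dtx3l and Zc3hav1, which rose, and to Parp4, whose window held interferon-type letters but whose transcript hardly differed. Capitals mark matches to a searched motif.

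Parp3, chr9:106476900-106477199, - strand: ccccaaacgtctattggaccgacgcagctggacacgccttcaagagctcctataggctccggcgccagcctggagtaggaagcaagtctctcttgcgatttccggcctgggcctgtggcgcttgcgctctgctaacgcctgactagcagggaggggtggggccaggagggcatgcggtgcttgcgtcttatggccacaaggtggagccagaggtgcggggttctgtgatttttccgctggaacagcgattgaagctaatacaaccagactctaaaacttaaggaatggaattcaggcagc

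Parp8, chr13:117025482-117025781, - strand: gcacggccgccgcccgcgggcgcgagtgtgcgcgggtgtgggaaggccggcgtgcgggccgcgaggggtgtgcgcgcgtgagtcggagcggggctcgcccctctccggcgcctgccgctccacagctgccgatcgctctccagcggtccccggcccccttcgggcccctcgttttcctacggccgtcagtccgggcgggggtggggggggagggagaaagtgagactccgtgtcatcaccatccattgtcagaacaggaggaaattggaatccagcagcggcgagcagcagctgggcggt

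Dtx3l, chr16:35938978-35939277, - strand: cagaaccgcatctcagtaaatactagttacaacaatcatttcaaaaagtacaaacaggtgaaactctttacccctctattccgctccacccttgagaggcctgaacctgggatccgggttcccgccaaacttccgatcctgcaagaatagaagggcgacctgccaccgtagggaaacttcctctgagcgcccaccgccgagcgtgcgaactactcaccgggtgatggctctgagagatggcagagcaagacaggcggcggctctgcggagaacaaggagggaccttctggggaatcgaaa

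Zc3hav1, chr6:38354554-38354853, - strand: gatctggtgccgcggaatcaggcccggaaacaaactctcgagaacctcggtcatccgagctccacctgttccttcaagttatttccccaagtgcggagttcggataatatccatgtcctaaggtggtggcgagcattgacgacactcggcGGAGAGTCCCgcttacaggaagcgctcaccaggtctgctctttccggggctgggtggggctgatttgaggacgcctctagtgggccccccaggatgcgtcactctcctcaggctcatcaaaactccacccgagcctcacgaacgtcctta

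Parp4, chr14:56575369-56575668, + strand: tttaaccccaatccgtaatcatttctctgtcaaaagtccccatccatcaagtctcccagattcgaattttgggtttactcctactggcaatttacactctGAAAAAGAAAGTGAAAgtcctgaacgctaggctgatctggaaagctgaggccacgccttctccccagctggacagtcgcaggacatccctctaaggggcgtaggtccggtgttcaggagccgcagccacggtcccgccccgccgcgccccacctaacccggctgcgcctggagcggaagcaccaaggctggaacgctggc

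Both strands were searched for the kB motif, named for NF-kB, for the interferon-stimulated response element core GAAANNGAAA and for the STAT-type GAS core TTCNNNGAA. These occur in 5.80%, 3.44% and 8.30% of all 32851 windows of this length. The windows of Parp3, Parp8 and Dtx3l held none of the 3. The Zc3hav1 window held 1 kB match, starting 100 bases before the gene's start. The Parp4 window held 2 overlapping GAAANNGAAA matches, starting 150 and 144 bases before the start. Of the windows not shown, 1 of Parp11 held a GAAANNGAAA match and a TTCNNNGAA match, 44 and 37 bases before the start, and that of Parp16 held a TTCNNNGAA match 4 bases before it. A match describes letters in a window and says nothing about binding.

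Total counts ran from 6007723 to 6969745 in the IL1B libraries and from 5335607 to 7513934 in the vehicle libraries. Levels are CPM, counts scaled to library size by the TMM method, and where genes are set against each other they are divided by the length of the longest annotated transcript (CPM per kb). Vehicle library 2 stood apart: the Spearman rho between its deviation from the vehicle mean and transcript length was -0.54 over genes, while the remaining 3 vehicle libraries were at 0.215 to 0.297. This correlation runs across genes, which are no independent replicates. The vehicle mean includes library 2, so the rho values of the other vehicle libraries are not independent of it. Beta-cell markers were abundant, with the 9 marker genes together at 34740 to 35820 CPM of total counts in IL1B libraries and 32160 to 37010 in vehicle libraries. Of the 9, the transcription factor genes Pdx1 and Mafa fell (log2 fold changes -0.56 and -0.47, SE 0.05 and 0.06, edgeR adjusted p = 3.0e-07 and 7.0e-06) and 7 did not pass; the part of this in the results was not tested. The 6 leukocyte markers summed to 4.49 to 5.60 CPM with IL1B and 4.11 to 4.84 with vehicle, and 5 of the 6 were below the filter. The 3 endothelial markers, all below the filter, summed to 3.01 to 3.93 CPM with IL1B and 1.499 to 2.68 with vehicle. Pecam1 held 15, 17 and 9 counts with IL1B and 6, 5, 3 and 3 with vehicle. Cdh5 held 4, 7 and 9 counts with IL1B and 8, 6, 12 and 4 with vehicle, and Kdr 0 to 2 in any library. The part of these markers in the results was not tested. The 4 stromal markers summed to 2.58 to 3.995 CPM with IL1B and 3.28 to 5.90 with vehicle, and the 4 exocrine and duct markers to 4.83 to 6.38 CPM with IL1B and 4.498 to 7.50 with vehicle, with Cpa1 at 0 counts in every library.

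**Figure D1:**
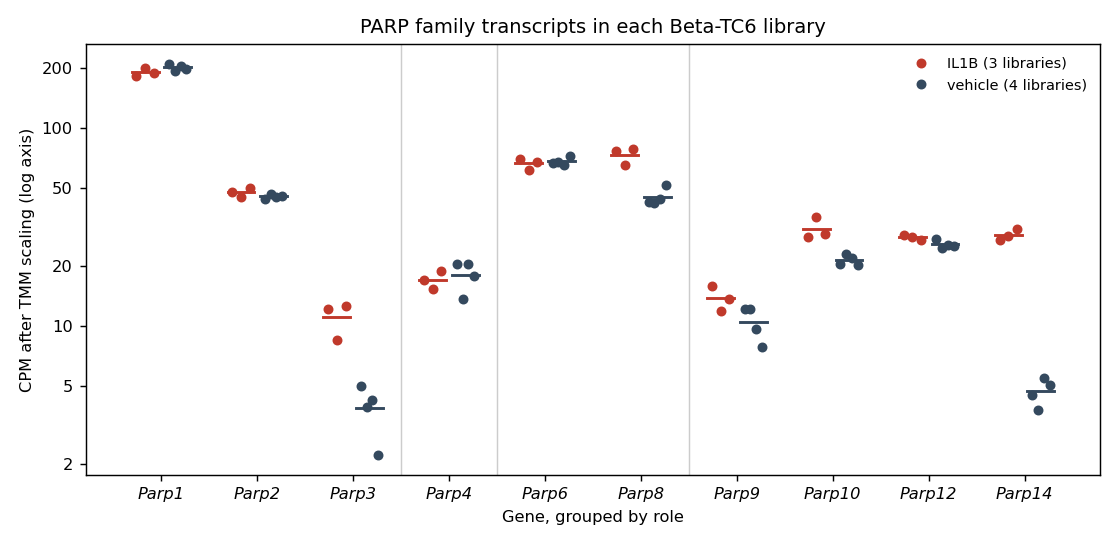
CPM after TMM scaling (log axis) of the 10 members in each of 3 IL1B libraries (red, left of each pair) and 4 vehicle libraries (dark, right), with group means as lines and roles parted by grey verticals. Parp14 lies at 27.1 to 30.9 CPM in IL1B libraries and 3.76 to 5.47 in vehicle libraries, and the groups also stand apart for Parp3, Parp8 and Parp10.

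With IL1B, 4 of the 10 members were higher past the threshold used here, an edgeR quasi-likelihood adjusted p of 0.05 over all tested genes. They were Parp14, Parp3, Parp8 and Parp10, and these are also the 4 members whose groups did not overlap. No member was lower past the threshold by edgeR, DESeq2 or limma-voom, and none at an unadjusted edgeR p under 0.05. Over all 12480 genes, 968 (7.76%) rose and 406 (3.25%) fell, 11.0% in either direction, and groups did not overlap in 21.0%. Because the comparison helped to choose the members, nothing is read from these shares. Scaling by total counts gave 844 increases and 556 decreases, so 60.3% of the changes were increases, against 70.5% with TMM. In bulk RNA a change in the number of cells and in RNA per cell cannot be told apart.

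Parp1 encodes the main sensor of DNA breaks in the family and was the most abundant member per length. It had 182, 201 and 190 CPM in IL1B libraries 1 to 3, against 211, 193, 204 and 199 CPM in vehicle libraries 1 to 4. The groups overlapped, with a log2 fold change of -0.08 (SE 0.06, 95% interval -0.21 to 0.04). With library 2 of each group left out it was -0.14, past the threshold as a decrease. The gene lies on chromosome 1 at 180568924 to 180601254.

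Parp2 encodes the second chain-building enzyme of DNA repair. Its levels were 47.6, 45.1 and 49.9 CPM with IL1B, against 43.6, 46.7, 44.95 and 45.1 CPM with vehicle. The groups overlapped at a log2 fold change of 0.08 (SE 0.08, 95% interval -0.08 to 0.24).

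Parp3 encodes a mono-ADP-ribosyltransferase of double-strand break repair and behaved unlike Parp1 and Parp2 in these values. It lies on the minus strand of chromosome 9 (106470322 to 106476949). The libraries held 84, 51 and 75 counts with IL1B and 38, 25, 24 and 12 counts with vehicle, that is 12.2, 8.48 and 12.7 CPM, against 5.002, 3.92, 4.23 and 2.23 CPM. Every IL1B library lay above every vehicle library, the second IL1B library being the lowest of its group and vehicle library 4 the lowest of all. The level was 2.82-fold higher (log2 fold change 1.497, SE 0.21, 95% interval 1.05 to 1.94). An exon of Parp3 overlaps Rrp9, a gene of ribosomal RNA processing on the opposite strand, and no source used here gives the strand setting of the counting, so reads of the pair may be shared. Rrp9 itself averaged 17.4 ± 1.69 CPM with IL1B and 15.4 ± 0.892 CPM with vehicle (SD, n = 3 and 4; log2 fold change 0.18, SE 0.12, edgeR adjusted p = 0.379).

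Per length, Parp1, Parp2 and Parp3 together came to 74.9 ± 1.64 CPM per kb with IL1B and 74.2 ± 1.74 CPM per kb with vehicle (SD, n = 3 and 4). The group means of this sum differed by less than the spread within either group. Of it, Parp1 gave 49.3 ± 2.45 CPM per kb with IL1B and 52.1 ± 1.997 with vehicle, Parp2 gave 21.9 ± 1.13 with IL1B and 20.7 ± 0.582 with vehicle, and Parp3 gave 3.76 ± 0.777 with IL1B and 1.30 ± 0.395 with vehicle (SD, n = 3 and 4).

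Parp4 encodes the PARP of the vault, a large ribonucleoprotein particle. Its levels were 17.1, 15.3 and 18.9 CPM with IL1B, against 20.7, 13.6, 20.5 and 17.8 CPM with vehicle. Vehicle library 2, whose values fall with transcript length, was the lowest of all 7 for this gene with a 6.387 kb transcript. The log2 fold change was -0.09 (SE 0.14, 95% interval -0.38 to 0.20), and -0.21 without that library. It was -0.01 without vehicle library 1, -0.02 without IL1B library 2 and -0.03 without vehicle library 3, in each case short of the threshold. With each library's trend with transcript length removed it was -0.08. The part of transcript length in the low value of vehicle library 2 was not tested.

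Parp6 encodes a mono-ADP-ribosyltransferase known in neuronal growth. It stood at 69.8, 61.5 and 67.3 CPM with IL1B, against 66.4, 67.5, 64.7 and 72.4 CPM with vehicle. The groups overlapped at a log2 fold change of -0.03 (SE 0.07, 95% interval -0.18 to 0.12), which was 0.02 without IL1B library 2.

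Parp8, a mono-ADP-ribosyltransferase gene on chromosome 13 (116854820 to 117025537), was the abundant member with a clear difference. It had 76.4, 65.3 and 78.1 CPM with IL1B, against 42.5, 42.0, 43.5 and 51.3 CPM with vehicle. All IL1B libraries were above all vehicle libraries, and vehicle library 4 was the highest of its group. The level was 1.64-fold higher (log2 fold change 0.71, SE 0.09, 95% interval 0.53 to 0.90). Per length Parp8 stood at 21.3 ± 2.02 CPM per kb with IL1B, next to Parp2 at 21.9 ± 1.13 and overlapping its range, whereas with vehicle it stood at 13.0 ± 1.26 CPM per kb, below Parp6 at 17.2 ± 0.844 (SD, n = 3 and 4).

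Parp14 encodes a macrodomain protein known in mouse B cells as a cofactor of STAT6. It showed the largest difference of the 10. The counts were 186, 171 and 183 with IL1B and 34, 24, 31 and 27 with vehicle. In CPM these are 27.1, 28.4 and 30.9 with IL1B, against 4.48, 3.76, 5.47 and 5.01 with vehicle. Each IL1B library was far above the highest vehicle library, and the level was 6.18-fold higher (log2 fold change 2.63, SE 0.13, 95% interval 2.34 to 2.91). It was the lowest member per length with vehicle, at 0.631 ± 0.0991 CPM per kb, and with IL1B stood at 3.88 ± 0.258 CPM per kb, where its range overlapped those of Parp9 and Parp3 (SD, n = 3 and 4). Vehicle library 2 had the lowest value, and without it the log2 fold change was 2.54, and with each library's trend with transcript length removed it was 2.63.

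Parp9 encodes a protein that works in a complex with the ubiquitin ligase DTX3L in interferon signalling. It had 15.9, 12.0 and 13.7 CPM with IL1B, against 12.2, 12.2, 9.70 and 7.80 CPM with vehicle. The second IL1B library lay below vehicle libraries 1 and 2, so the groups overlapped. The log2 fold change was 0.38 (SE 0.16, 95% interval 0.05 to 0.71), short of the threshold after adjustment. It was 0.46 without vehicle library 2, still short of it, and 0.55 and past it when library 2 of each group was left out.

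Parp14, Dtx3l and Parp9 lie close together on chromosome 16, at 35832874 to 35871544, 35926511 to 35939151 and 35938470 to 35972605. Between Parp14 and Dtx3l the annotation holds 2 processed pseudogenes, neither of them a row of the table. Dtx3l and Parp9 run away from each other with starts that overlap over 682 bases, so without strand some reads cannot be told apart. Dtx3l had 23.6, 17.5 and 19.4 CPM with IL1B, against 8.29, 7.99, 8.99 and 8.73 CPM with vehicle. It rose 2.39-fold with no overlap between groups, a log2 fold change of 1.25 (SE 0.13) at an edgeR adjusted p of 1.1e-06. The difference between the fold changes of Dtx3l and Parp9 was not tested.

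**Figure D2:**
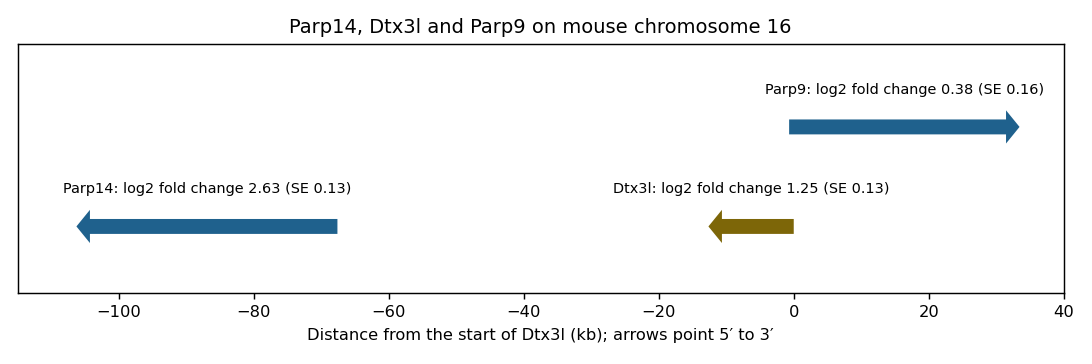
Positions of Parp14, Dtx3l and Parp9 drawn to scale in kb from the start of Dtx3l, arrows pointing 5′ to 3′, with each gene's log2 fold change of IL1B over vehicle. The values are 2.63 for Parp14, 1.25 for Dtx3l and 0.38 for Parp9.

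Parp10 encodes a mono-ADP-ribosyltransferase first found as a MYC-binding protein. It had 28.1, 35.6 and 29.2 CPM with IL1B, against 20.5, 23.0, 22.0 and 20.4 CPM with vehicle. Groups did not overlap, the second IL1B library being the highest, and the level was 1.44-fold higher (log2 fold change 0.52, SE 0.10, 95% interval 0.31 to 0.74). Without that library it was 0.41 and still past the threshold. Parp10 shares annotated exon bases on the same strand with Plec, the gene of the cytoskeletal linker plectin on chromosome 15, and no source used here says how reads in shared bases were counted. Plec averaged 69.6 ± 3.78 CPM with IL1B and 63.1 ± 11.5 CPM with vehicle (SD, n = 3 and 4; log2 fold change 0.14, SE 0.11, edgeR adjusted p = 0.509).

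Parp12 encodes an interferon-induced protein that moves between the Golgi and stress granules. It stood at 28.7, 28.3 and 27.2 CPM with IL1B, against 27.4, 24.9, 25.7 and 25.3 CPM with vehicle. The first vehicle library reached into the IL1B range, and the log2 fold change was 0.12 (SE 0.09, 95% interval -0.07 to 0.30). Among the 4 interferon-linked members, then, Parp14 and Parp10 passed the threshold and Parp9 and Parp12 did not. Their summed level was 25.6 ± 0.745 CPM per kb with IL1B and 17.9 ± 0.850 CPM per kb with vehicle (SD, n = 3 and 4).

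Over all 10 members the median log2 fold change was 0.25, against -0.01 over all tested genes. The members were chosen with this comparison known, so nothing is read from the difference. Per length the order with vehicle was Parp1, Parp2, Parp6, Parp8, Parp12, Parp10, Parp9, Parp4, Parp3 and Parp14, and only Parp9 and Parp4 had overlapping ranges as neighbours. With IL1B the order was Parp1, Parp2, Parp8, Parp6, Parp10, Parp12, Parp9, Parp14, Parp3 and Parp4. There the neighbours Parp2 and Parp8, Parp10 and Parp12, and each pair from Parp9 down to Parp4 overlapped in range.

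The 6 family genes outside the member list moved in both directions: 1 of 6 rose and 1 fell, beside 7.76% and 3.25% of all tested genes. Zc3hav1 encodes the zinc-finger antiviral protein, a family member without enzyme activity that binds viral RNA. It had 68.9, 58.8 and 60.1 CPM with IL1B, against 44.0, 39.9, 43.9 and 42.7 CPM with vehicle, with no overlap. It rose 1.47-fold, a log2 fold change of 0.56 (SE 0.08) at an edgeR adjusted p of 5.5e-05. Its promoter window is the one with the kB match, a motif in 5.8% of all windows. The windows of Parp3, Parp8 and Dtx3l, also higher with IL1B, held none, and a link between match and rise was not tested. Tiparp encodes a mono-ADP-ribosyltransferase that is a target and repressor of the aryl hydrocarbon receptor. It had 30.5, 32.9 and 31.9 CPM with IL1B, against 57.4, 43.8, 47.4 and 42.7 CPM with vehicle, again with no overlap, and the first vehicle library was the highest. It fell to 0.659 of the vehicle level (log2 fold change -0.60, SE 0.10, edgeR adjusted p = 3.4e-04), and without vehicle library 1 the log2 fold change was -0.49, still past the threshold.

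Parp11, Parp16, Tnks and Tnks2 did not pass. Tnks2, one of the tankyrase genes, whose enzymes mark axin and telomere proteins, averaged 277 ± 4.16 CPM with IL1B and 290.4 ± 20.99 CPM with vehicle (SD, n = 3 and 4). Its log2 fold change was -0.07 (SE 0.06, 95% interval -0.20 to 0.06, edgeR adjusted p = 0.588), and -0.11 without vehicle library 2 (edgeR adjusted p = 0.144). Tnks, with a 9.163 kb transcript, was lowest in vehicle library 2, at 68.1 CPM against 89.0 to 96.4 in the other vehicle libraries. Its log2 fold change was -0.06 (SE 0.09, edgeR adjusted p = 0.759). It was -0.16 without vehicle library 2 (edgeR adjusted p = 0.120), -0.0004 without vehicle library 1 (edgeR adjusted p = 0.999) and -0.20 when library 2 of each group was left out (edgeR adjusted p = 0.0326). With each library's trend with transcript length removed it was -0.05 (edgeR adjusted p = 0.683), and the part of transcript length was not tested. Parp16, which encodes a PARP of the endoplasmic reticulum membrane, was the scarcest at 2.67 ± 0.717 CPM with IL1B and 3.32 ± 0.436 CPM with vehicle (SD, n = 3 and 4), and its interval of -0.84 to 0.26 is wide. Parp11 was at 16.4 ± 0.835 CPM with IL1B and 17.0 ± 2.51 CPM with vehicle (SD, n = 3 and 4; log2 fold change -0.03, SE 0.13, edgeR adjusted p = 0.920).

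**Figure D3:**
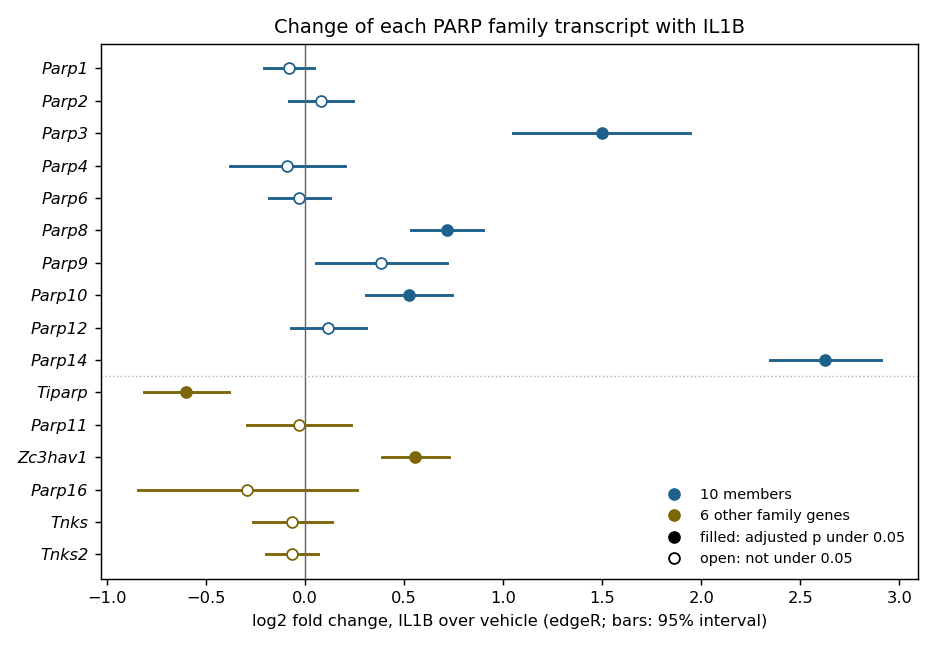
log2 fold change of IL1B over vehicle with 95% intervals for the 10 members (blue) and the 6 other family genes (brown), filled where the edgeR adjusted p was under 0.05. Parp14 (2.63) and Parp3 (1.497) lie farthest right, and Tiparp (-0.60) is the filled point left of 0.

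Among the 5 lists of genes that work with ADP-ribosylation, those past the threshold were in interferon signalling and ubiquitin ligases. With the rest of the family included, 9 of 73 tested genes rose and 1 fell, beside 7.76% and 3.25% of all tested genes. These counts are a description, and a difference from the share over all genes was not tested. In the list of genes that remove or read ADP-ribose, which also holds the cofactor gene Hpf1, 13 genes were tested. None of them passed by edgeR, DESeq2 or limma-voom. At an unadjusted edgeR p under 0.05 there were 2 higher and 1 lower. Parg, which encodes the hydrolase that takes ADP-ribose chains apart, averaged 52.7 ± 2.34 CPM with IL1B and 57.3 ± 1.76 CPM with vehicle (SD, n = 3 and 4; log2 fold change -0.12, SE 0.07, edgeR adjusted p = 0.357). Hpf1, the PARP1 and PARP2 cofactor, listed in the table under 2700029M09Rik, stood at 106 ± 4.72 CPM with IL1B and 107 ± 2.24 CPM with vehicle (SD, n = 3 and 4; log2 fold change -0.01, SE 0.06, edgeR adjusted p = 0.968).

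Among genes of NAD supply and use, none of 16 tested passed by any of the 3 tools, with 0 higher and 1 lower at an unadjusted edgeR p under 0.05. Nampt, the rate-limiting enzyme of NAD salvage, averaged 113 ± 2.79 CPM with IL1B and 115 ± 6.73 CPM with vehicle (SD, n = 3 and 4; log2 fold change -0.02, SE 0.06, edgeR adjusted p = 0.905). Its 95% interval ran from -0.16 to 0.12. Among 19 DNA break repair partners none passed by any of the 3 tools, and 0 were higher and 1 lower at the unadjusted threshold. Xrcc1, the scaffold recruited by ADP-ribose chains, averaged 69.9 ± 7.78 CPM with IL1B and 68.5 ± 2.86 CPM with vehicle (SD, n = 3 and 4; log2 fold change 0.03, SE 0.08, edgeR adjusted p = 0.863). The medians of these 3 lists were 0.03, -0.01 and 0.0021 on the log2 scale.

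Of 7 tested ubiquitin ligases tied to ADP-ribose, 2 rose and none fell by edgeR, beside 7.76% and 3.25% of all tested genes. DESeq2 gave 1 and limma-voom 2 increases with no decrease, and no member of the list was lower at an unadjusted edgeR p under 0.05. Besides Dtx3l, the increase was in Dtx4, a related Deltex gene, with 4.23, 3.49 and 6.58 CPM with IL1B against 2.63, 2.98, 2.12 and 2.04 CPM with vehicle. Its counts were 11 to 39 per library and its log2 fold change 0.93 (SE 0.27, edgeR adjusted p = 0.0280). That call was lost with DESeq2 and without vehicle library 1, 3 or 4, at log2 fold changes of 0.95, 0.97, 0.87 and 0.87, and without IL1B library 3, at 0.65.

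Interferon signalling genes rose in 6 of 12 cases and none fell by edgeR, with 5 and 6 increases by DESeq2 and limma-voom, none lower at an unadjusted edgeR p under 0.05, and a median log2 fold change of 0.27. Over all tested genes 7.76% rose and 3.25% fell by edgeR. Irf1, an interferon regulatory factor, averaged 162 ± 10.5 CPM with IL1B and 23.6 ± 1.39 CPM with vehicle (SD, n = 3 and 4; log2 fold change 2.78, SE 0.08, edgeR adjusted p = 9.6e-16). The interferon-gamma receptor genes Ifngr2 and Ifngr1 rose 4.19-fold and 1.84-fold (edgeR adjusted p = 4.3e-13 and 1.9e-07), and Tyk2, a kinase of interferon receptors, 1.62-fold (edgeR adjusted p = 4.4e-05). Ifnar1 also rose, 1.23-fold (edgeR adjusted p = 0.0111). Ifnb1, the interferon-beta gene, had 0 counts in all 7 libraries, which allows up to 0.430 to 0.499 CPM of total counts per IL1B library and 0.399 to 0.562 per vehicle library, counting error alone.

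Stat2 and Irf9 encode transcription factors that carry interferon signals. Stat2 averaged 32.0 ± 1.26 CPM with IL1B and 33.3 ± 0.857 CPM with vehicle (SD, n = 3 and 4; edgeR adjusted p = 0.771). Irf9 had 10.2, 5.82 and 10.8 CPM with IL1B, against 10.3, 11.0, 10.9 and 11.3 CPM with vehicle (log2 fold change -0.27, SE 0.17, edgeR adjusted p = 0.390), the second IL1B library being the lowest. Without that library the log2 fold change was -0.05 (edgeR adjusted p = 0.927). The list was drawn up with the Irf1 and other interferon results of these data known, so its count is not independent of them.

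**Figure D4:**
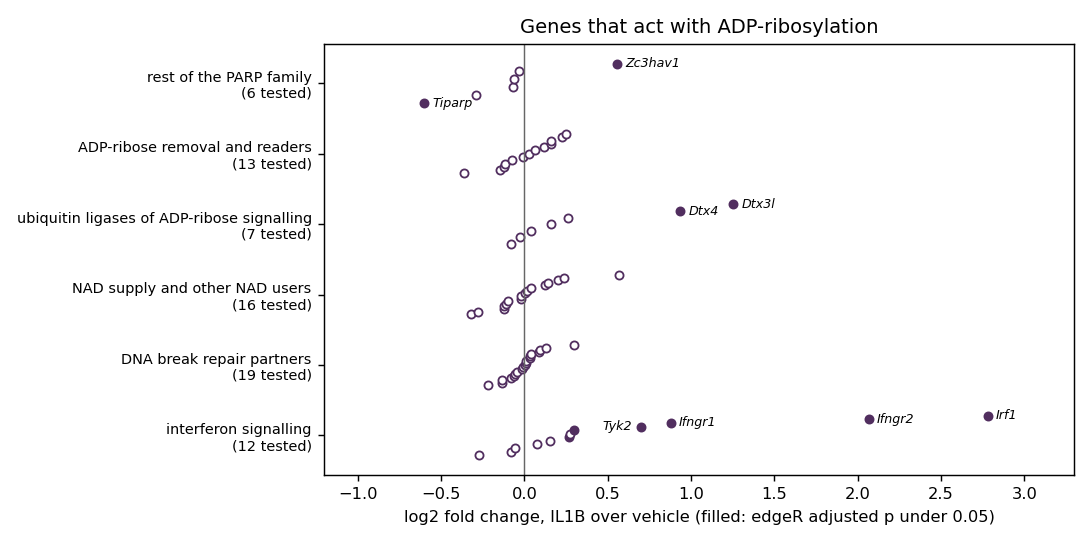
log2 fold change of IL1B over vehicle for each tested gene of 6 lists tied to ADP-ribosylation, filled where the edgeR adjusted p was under 0.05 and named where it also exceeded 0.5 in size. The 3 lists of ADP-ribose removal, NAD and DNA repair genes hold no filled point, whereas Irf1 (2.78), Ifngr2 (2.07) and Dtx3l (1.25) lie to the right.

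Likeness to Parp14 was measured as the root mean square difference between log2 CPM profiles over the 7 libraries, each centred on its own mean. The closest genes outside the family were Nfkb1, an NF-kB subunit gene, at 0.16, Tnfsf10, which encodes the death ligand TRAIL, at 0.17, and Dusp16, a MAP kinase phosphatase gene, at 0.18, against a median of 1.28 over all tested genes. Their log2 fold changes were 2.44, 2.85 and 2.55. Parp14 was taken for its IL1B difference in these same libraries, so genes with a similar fold change come out closest. The likeness is a description, and a link between these genes was not tested. Parp4 had the lowest log2 fold change of the members with all libraries, although that of Parp1 was lower with limma-voom and without IL1B library 2, vehicle library 1, vehicle library 3 or both second libraries. For Parp4 the closest were Chl1 at 0.05, Fam161a at 0.06 and Lass6 at 0.06, against a median of 0.24.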

How the data were processed

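The deposited file is 1 table of unnormalised counts for 7 libraries, by gene symbol. Per the submitters' processing notes, the build was mm10, and the tools R 4.1.0, DESeq2, RSEM, STAR, Bowtie2, HOMER, Signac, Seurat and Cell Ranger are named without roles. The sources used here do not give counter, annotation, strand setting or the handling of reads that match several genes. Per the labels, libraries were made with NEBNext Ultra II. IL1B samples are numbered 1, 3 and 4 in the titles but 1, 2 and 3 in the table, so its columns were assigned to the group only and keep the table's numbers. No label says that replicates came from separate cultures. P-values then set the difference between groups against the spread among these samples only. That spread may be technical, and the p-values would then leave out variation between cultures. No pair within a group agreed within sampling noise (chi-square per degree of freedom 1.52 to 4.88). Pairs with library 2 differed most in both groups. With IL1B they gave 4.20 and 2.87, against 1.69 for libraries 1 and 3. With vehicle they gave 3.82 to 4.88, against 1.52 to 1.60 for pairs without it.

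Counts were fitted over the whole table in R 4.3.3 with edgeR 4.0.16 (TMM, filterByExpr, quasi-likelihood test, IL1B over vehicle, Benjamini-Hochberg adjustment, threshold 0.05). Standard errors were taken from the size of the log2 fold change and its F statistic. Log2 CPM used a prior count of 2. Alternatives were scaling by RLE or total counts, no filter on low counts, 1 CPM in 3 libraries, DESeq2 1.42.0, limma-voom 3.58.1, removal of each library's trend with transcript length, and leaving out each library or the second of each group. Members and lists were chosen with earlier results of these data known. All members and the rest of the family were named, with up to 4 genes past the threshold of each other list by adjusted p and 9 genes fixed by name, of which 1 is not reported here. Of 116 list and marker symbols 114 were found, some under older symbols through RefSeq. Coordinates and lengths are those of GENCODE M21 (GRCm38). No other annotated gene shared more than 10.3% of a family transcript at 95% identity. The test was checked on simulated counts. Floors are 3 counts and cover counting error only.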

Additional observations from a re-analysis of the deposited data

Results flagged for a closer look

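In 2 of 33 sets of vehicle values Dixon's test set 1 library apart, and chance gives such a flag in about 1 in 20 (1.65 sets). Vehicle library 4 had 51.3 CPM of Parp8, against 42.0 to 43.5 CPM in the others, and without it the log2 fold change was 0.78, against 0.71. Vehicle library 2 had a Spearman rho of -0.54 between deviation from the vehicle mean and transcript length, against 0.215 to 0.297 in the others. That mean includes library 2, so these values are not independent of each other.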

How the results depend on the processing

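Across 15 alternatives the 4 members past the threshold kept their direction and stayed past it: Parp14 at 2.54 to 2.71, Parp3 at 1.33 to 1.67, Parp8 at 0.67 to 0.79 and Parp10 at 0.41 to 0.59 on the log2 scale. The members were chosen with this comparison known and each alternative reuses the same libraries, so nothing is read from this stability. Without the second library of each group, Parp9 was also higher and 1 member, Parp1, was lower past the threshold, 3 of the ADP-ribosylation genes fell in place of 1, and 676 of all genes fell, against 406 with all libraries. In that setting 1847 genes passed in either direction, against 1374 with all libraries. The count of falling genes was 260 with DESeq2 and ran from 252 (without IL1B library 3) to 589 (without vehicle library 2) when single libraries were left out. Log2 values near 0 changed sign for Parp6 (-0.0722 to 0.0197 leaving out 1 library, and 0.02 with both second libraries left out), Parp11 (-0.1038 to 0.0593), Hpf1 (-0.0382 to 0.0236, and 0.0222 with both second libraries left out), Nampt (-0.0572 to 0.0051) and Xrcc1 (-0.0495 to 0.1137), none past the threshold; the cause was not tested. The median log2 fold change of all genes was -0.01, and -0.04 with total-count scaling. No paired analysis was possible because the IL1B columns carry numbers that differ from those of the titles. Depth limits Parp3, Parp16 and Dtx4, whose libraries held as few as 12, 13 and 11 counts.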

Other observations

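Dtx1, a Deltex ligase gene, stayed below the low-count filter. It had 4, 5 and 1 counts in the IL1B libraries, against 8, 8, 10 and 10 counts in the vehicle libraries. The difference was not tested, and among the genes that were tested the groups did not overlap in 21.0%.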
